A study of Mus musculus with 7 samples.

Results

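Dense clusters of Zfp281 sites in mouse embryonic stem cells (ESCs) were chosen by the positions of the ESC Zfp281 peaks alone. Peaks on chromosomes 1 to 19 and X were sorted, neighbours with a gap below 5000 bp were chained, and every chain of 5 or more peaks was kept as a cluster. This gave 803 clusters with 5044 of the 52296 peaks in the list, or 9.65%, and 30 peaks on other sequences were left out. Zfp281 is a zinc finger transcription factor that binds G-rich DNA and is known in ESCs as a partner of the pluripotency network. Suz12 is a core subunit of Polycomb repressive complex 2, which trimethylates histone H3 at lysine 27 and keeps developmental genes silent, often over broad domains. Sites of many factors are known to lie close together in strong enhancers of ESCs.

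The lists come from sequencing of immunoprecipitated chromatin (ChIP-seq) in ESCs and in extraembryonic endoderm stem cells (XENs), the stem cells of the lineage that forms the yolk sac endoderm, both of strain 129S1. The ESCs were cultured in medium with serum and leukemia inhibitory factor, and the XENs in medium conditioned by embryonic fibroblasts, in both cases on gelatin and without a feeder layer. Neither carried a genetic change or treatment that the labels name. The report uses the Zfp281 peaks of ESCs, the 8184 Suz12 peaks of ESCs and the 3449 Zfp281 peaks of XENs, each from 1 library with no replicate. No spread between replicates exists, so shares carry a 95% Wilson interval for counting error only, and no p-value is given. Peaks of 1 cluster share a locus and are not independent, which makes these intervals too narrow. Positions are those of the authors' lists, in build mm9 per the submitters' processing notes. Genes and sequences at these positions were not analysed here. None of the 4 XEN Suz12 peaks and not the single XEN H3K27me3 peak lay in a cluster.

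Most clusters were short and held few peaks. The median length was 14423 bp (quartiles 11146 and 18500.5 bp), with a shortest cluster of 4095 bp and a longest of 52401 bp. The median number of peaks was 6, and 386 clusters, 48.1% of all, had the minimum of 5. Only 51 clusters had 10 or more peaks, 32 were longer than 30 kb by end-to-end length, and the largest by number had 20 peaks. The clusters thus form a long tail, with length and number of peaks rising together in the plot of cluster sizes.

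**Figure D1:**
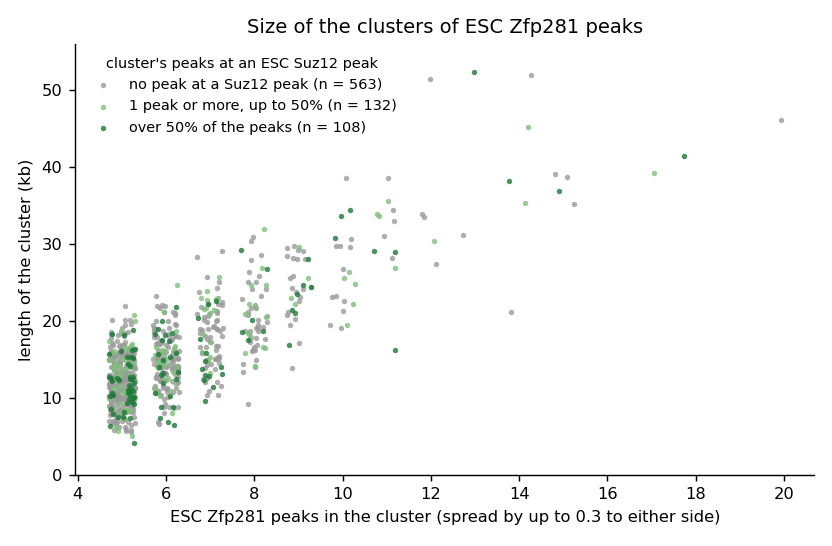
Length of each of the 803 clusters (kb, vertical axis) against its number of ESC Zfp281 peaks (horizontal axis, points spread sideways for legibility). Colours give the share of the cluster's peaks that overlap an ESC Suz12 peak; the 108 clusters with over 50% of their peaks at Suz12 (dark green) are found at all sizes, from the shortest of 4095 bp to the longest of 52401 bp.

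Within a cluster, the sites were separate peaks with stretches free of peaks between them. Over 4241 gaps inside clusters, the median gap was 1477 bp (quartiles 567 and 2897 bp), and the median distance between neighbouring summits was 2559 bp. Peaks covered a median of 38.5% of a cluster's length (range 15.3 to 78.8%). The chaining distance mattered for a minority of clusters: 437 gaps, 10.3% of them, were 4000 bp or longer, and 333 clusters held at least 1 such gap. The densest cluster, singled out after its value was seen, was also the shortest and lay at chr12:74144236-74148330, with 5 peaks in 4095 bp (12.2 peaks per 10 kb) and all 5 inside a single Suz12 peak. The median over clusters was 4.05 peaks per 10 kb.

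The strength of the clustered peaks was a mixture of strong and weak. The authors' fold enrichment, a value of each peak over the expected level at its summit, had a median of 5.88 in clustered peaks (quartiles 4.07 and 10.03) and 5.48 in the other 47222 peaks (4.18 and 8.47). Clustered peaks were wider, with a median of 735 bp against 583 bp. Of the clustered peaks, 14.9% lay in the highest decile of the list by the authors' score and 11.2% in the lowest, against 9.47 and 9.87% of the others. The highest fold in a cluster was 2.47 times the cluster's median fold (median over clusters, quartiles 1.78 and 3.58). The highest of several values lies above their median in any set, and no such ratio was computed for other sets of peaks. A peak of the highest decile was present in 486 clusters, and 2 or more such peaks in 181. Of the highest decile of the whole list 14.4% was clustered, and of the 100 highest-scoring peaks 14, beside 9.65% of all peaks. These values describe the list that chose the members and were not tested.

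The rule's lower limit was not a visible break. The 799 chains of 4 peaks, just outside it, had a median length of 9188 bp, and the 386 chains of 5, just inside it, had 11994 bp. Median folds were 5.73 in both. Suz12 peaks met 12.3% of the peaks in chains of 4 and 14.6% of those in chains of 5, and XEN Zfp281 peaks met 6.38% and 7.05%.

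Suz12 was found at clustered Zfp281 sites more often than at the others. Of the 5044 clustered peaks, 852 overlapped an ESC Suz12 peak by at least 1 bp, or 16.9% (15.9 to 17.95%), where 7.77% of all ESC Zfp281 peaks did. Among the peaks outside clusters the share was 6.80% (6.58 to 7.03%), a ratio of 2.48. The share was higher in chains of more peaks, with a level stretch between 6 and 9. It was 4.95% (4.69 to 5.22%) for peaks alone in their chain, 7.42% in chains of 2, 10.8% in chains of 3, 17.5% (15.3 to 19.9%) in chains of 6, 17.7% (14.9 to 20.8%) in chains of 7, 16.8% (14.3 to 19.5%) in chains of 8 to 9 and 22.6% (19.4 to 26.1%) in chains of 10 or more. The last value rests on 603 peaks in 51 clusters. Wide peaks meet Suz12 peaks more easily, and with the other peaks weighted to the same deciles of width the ratio was 1.90. The ratio was largest, at 3.41, against peaks alone in their chain, and lowest, at 1.499, where sharing was counted by peak centres within 1 kb.

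**Figure D2:**
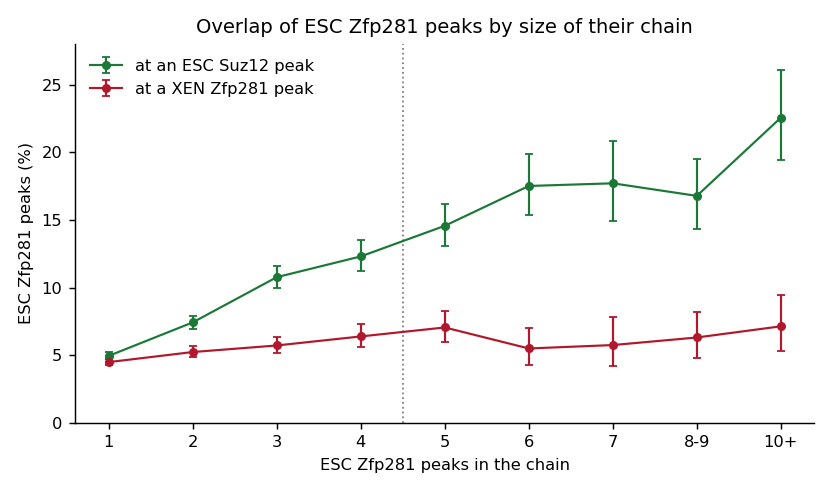
Share of ESC Zfp281 peaks (%) that overlap an ESC Suz12 peak (green) or a XEN Zfp281 peak (red) by the number of peaks in their chain, with 95% Wilson intervals; chains right of the dotted line are clusters. The Suz12 share rises from 4.95% for lone peaks to 22.6% in chains of 10 or more, while the XEN share stays between 4.49 and 7.13%.

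The higher Suz12 share in clusters was seen at weak Zfp281 sites as well as at strong ones. Among clustered peaks it was 15.5% (12.7 to 18.7%) in the lowest decile of the list by score and 17.6% (15.1 to 20.5%) in the highest, and it stayed between 14.9 and 19.6% in all 10 deciles. Among the other peaks it was 5.53% (4.91 to 6.23%) in the lowest decile and 13.4% (12.4 to 14.4%) in the highest. The difference between clustered and other peaks was smallest in the highest decile, and the intervals did not overlap in any decile. The same was seen inside clusters. Ranked by score within its cluster, the strongest peak overlapped Suz12 in 19.7% of clusters (17.1 to 22.6%) and the fifth strongest in 14.3% (12.1 to 16.9%). The median fold fell from 16.05 to 4.12 between these ranks, and the median width from 1466 to 519 bp.

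**Figure D3:**
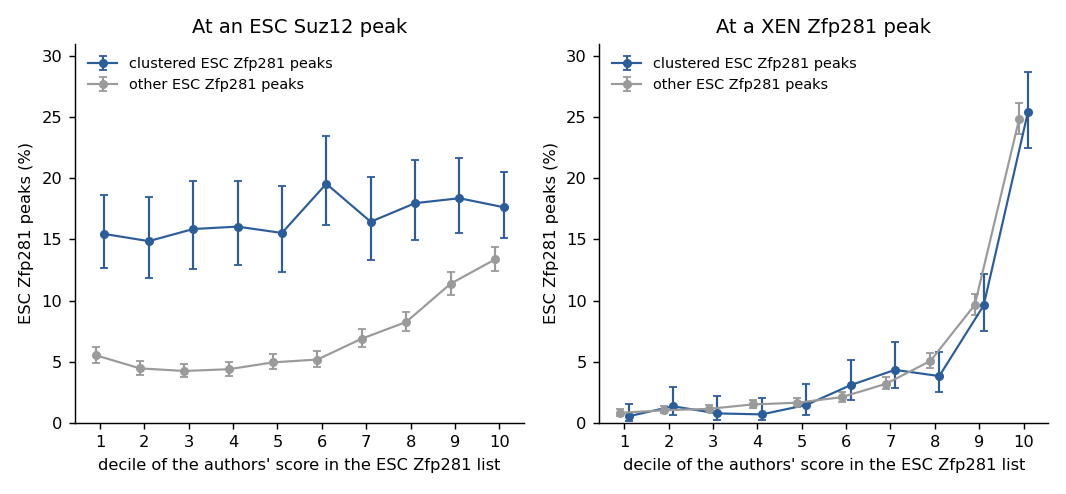
Share of clustered (blue) and other (grey) ESC Zfp281 peaks (%) at an ESC Suz12 peak (left) and at a XEN Zfp281 peak (right), by decile of the authors' score over the ESC Zfp281 list (10 = highest), with 95% Wilson intervals. On the left the clustered peaks lie above the others in every decile; on the right both rise together to 25.5 and 24.9% in the highest decile.

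Suz12 was unevenly shared out among the clusters. No peak overlapped Suz12 in 563 clusters, and at least 1 did in the other 240, or 29.9% (26.8 to 33.1%). Over all chains of the list, lone peaks included, the share with Suz12 was 7.53% (7.26 to 7.81%). In chains of 4 it was 22.7% (19.9 to 25.7%), and chains of more peaks offer more sites. Of the 240 clusters, 132 had up to 50% of their peaks at Suz12, 54 had more than that but not all, and 54 had every peak at Suz12. The 108 clusters with over 50% held 621 of the 852 clustered peaks at Suz12, in 712 peaks. In the 54 clusters with every peak at Suz12, Suz12 peaks covered a median of 94.9% of the cluster's length (66.5 to 100%) with a median of 2 Suz12 peaks. In clusters with up to 50%, they covered a median of 12.4%. Most Suz12 peaks in a cluster met a Zfp281 peak: of the 580 that reached into a cluster, 507 overlapped a clustered peak and 73 lay between them. The median gap between clustered peaks was 1477 bp, so a wide Suz12 peak can meet one by its length alone. The part of this was not tested. The 507 Suz12 peaks were 6.195% of the Suz12 list.

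The clusters with most peaks at Suz12 differed in how many Suz12 peaks were called and how much of the cluster these covered. The signal between called peaks was not examined. The cluster at chr11:96143271-96195671 was the longest of all, at 52.4 kb, and all of its 13 Zfp281 peaks (4.01-fold to 38.3-fold) lay within 1 Suz12 peak that ran past both of its ends. At chr10:79951869-79968134, all 11 peaks (3.78-fold to 19.5-fold) lay at 3 Suz12 peaks that covered 91.9% of 16.3 kb. Neither of these had a XEN Zfp281 peak. In the other 3 the called Suz12 peaks left more of the cluster uncovered. The cluster at chr11:98178682-98220073 had 14 of 18 peaks at Suz12, spread over 11 Suz12 peaks that covered 63.9% of it. The cluster at chr6:52108064-52146283 had 10 of 14 peaks at Suz12 with 8 Suz12 peaks, and was the first by position of 2 clusters with 10. At chr13:40799489-40836440, 13 of 15 peaks were at Suz12, and one of the 2 that were not was the strongest of the cluster (48.3-fold), which sat in a gap between Suz12 peaks; it was picked out after its value was seen.

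**Figure D4:**
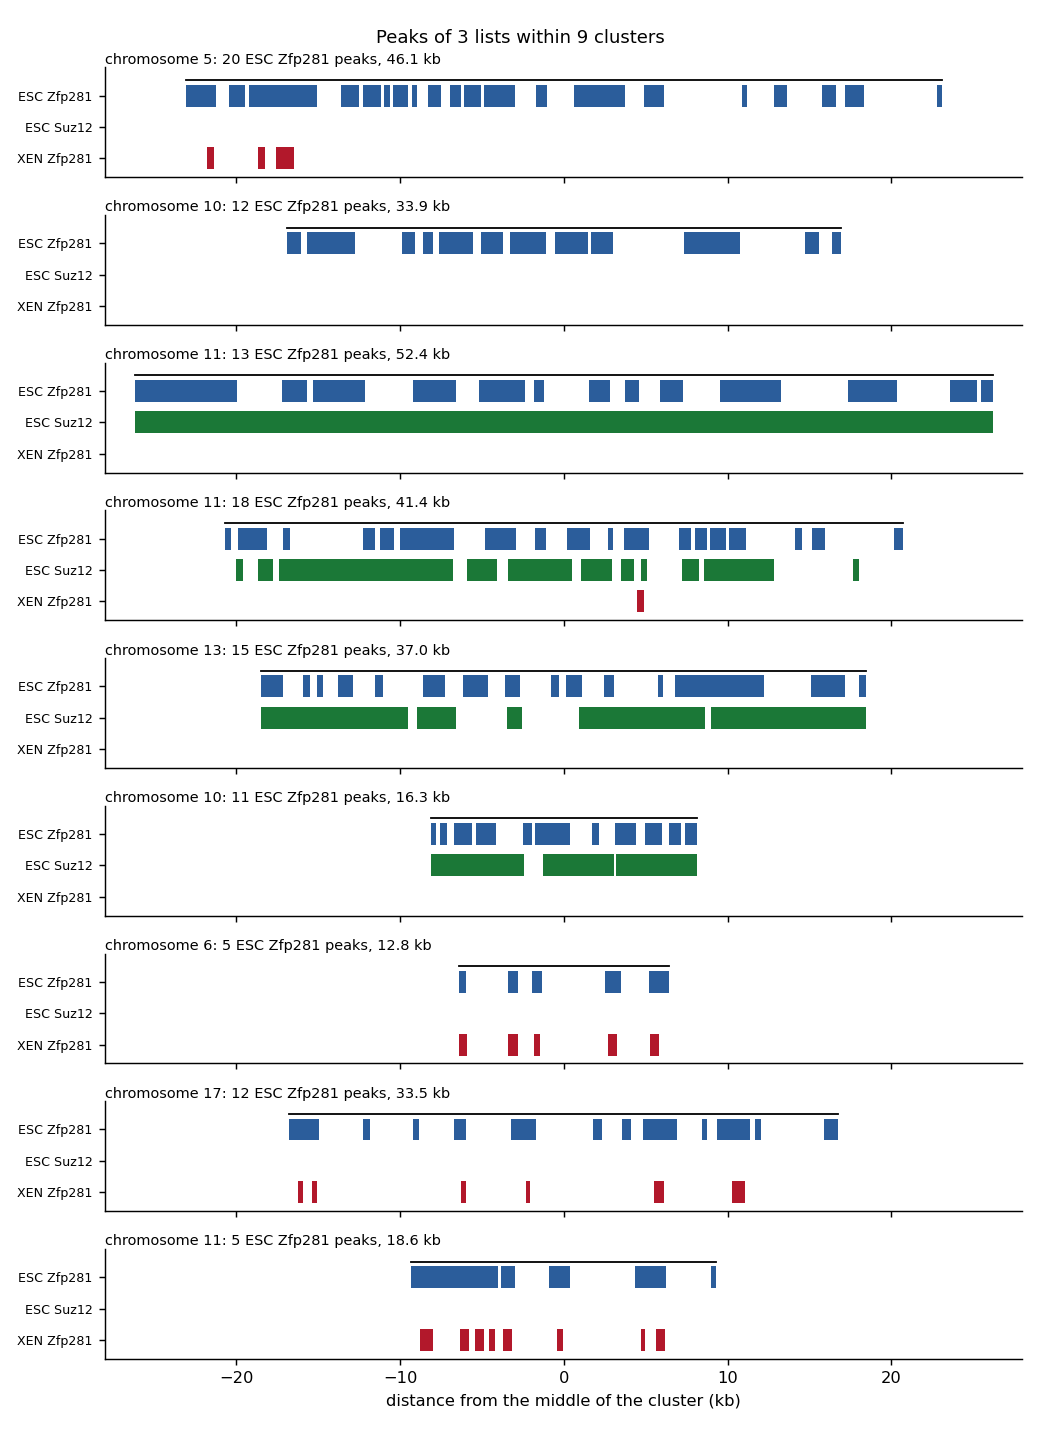
Peaks of ESC Zfp281 (blue), ESC Suz12 (green) and XEN Zfp281 (red) in 9 of the named clusters, drawn to 1 scale as distance from the middle of the cluster (kb); the black line is the cluster and peaks are cut at its ends. A Suz12 peak fills the cluster of 52.4 kb on chromosome 11, and Suz12 peaks leave gaps in that of 41.4 kb. XEN peaks sit at all 5 sites of the cluster on chromosome 6 and at 4 of 5 sites of that of 18.6 kb on chromosome 11. They sit at 5 of 12 sites on chromosome 17, at 2 of 20 on chromosome 5 and at 1 in the cluster of 41.4 kb. The other clusters drawn have none.

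Few clustered sites kept a Zfp281 peak in XENs. A site is called kept where a XEN peak overlaps it; with a much shorter list from 1 XEN library, a site that was not kept had no called peak, which does not show that Zfp281 was absent. A XEN Zfp281 peak overlapped 325 of the 5044 clustered peaks, or 6.44% (5.80 to 7.15%), where 5.10% of all ESC Zfp281 peaks did, and 2341 of the other peaks, or 4.96% (4.77 to 5.16%). The ratio was 1.30. With the other peaks weighted to the same score deciles it was 1.005, and with the same width deciles it turned to 0.918. In the highest score decile 25.5% (22.5 to 28.7%) of clustered and 24.9% (23.6 to 26.1%) of other peaks had a XEN peak, and in the lowest decile 0.533% (0.181 to 1.55%) and 0.815% (0.594 to 1.12%). The share with a XEN peak rose less with chain size than that with Suz12, and unevenly. It was 4.49% (4.24 to 4.74%) for lone peaks and 7.05% (5.99 to 8.28%) in chains of 5. In chains of 6 it was 5.49% (4.28 to 7.02%) and in chains of 10 or more 7.13% (5.34 to 9.47%).

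Counted by cluster, 566 of the 803 had no XEN Zfp281 peak at any of their sites and 237 had at least 1, or 29.5% (26.5 to 32.8%). Over all chains of the list, lone peaks included, the share was 6.87% (6.62 to 7.14%). In chains of 4 it was 20.5% (17.9 to 23.5%). A chain of more peaks offers more sites, and the part of this in the share was not tested. A single site was kept in 165 of the 237 clusters and 2 sites in 61, and only 11 clusters kept 3 or more. The kept site was usually a strong one. The strongest peak of the cluster had a XEN peak in 154 of the 803 clusters (19.2%, 16.6 to 22.0%), the second strongest in 10.7% (8.75 to 13.0%), the third in 4.86% and the fifth in 1.74% (1.04 to 2.91%). The strongest or second strongest peak was kept in 201 of the 237 clusters with any XEN peak. Between the strongest and the fifth strongest peak the median width also fell, from 1466 to 519 bp. The part of width in these shares was not tested. Of the 362 XEN peaks that reached into a cluster, only 6 fell between its ESC peaks.

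**Figure D5:**
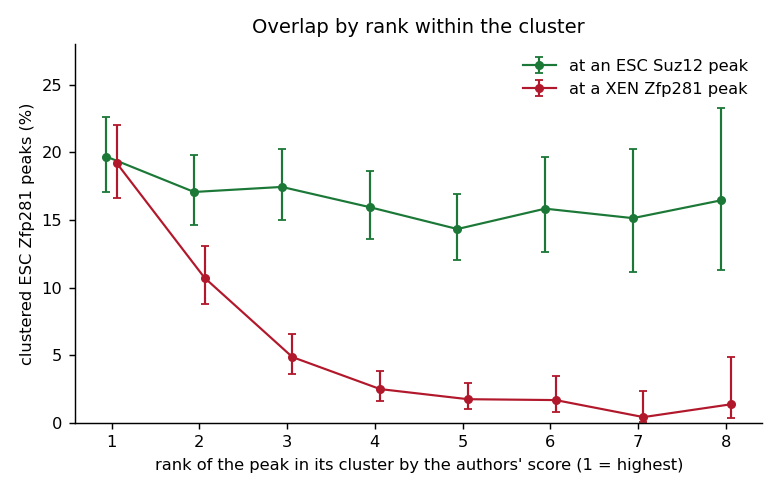
Share of clustered ESC Zfp281 peaks (%) at an ESC Suz12 peak (green) and at a XEN Zfp281 peak (red) by the peak's rank in its own cluster by the authors' score, with 95% Wilson intervals; ranks 1 to 5 have 803 peaks each, ranks 6 to 8 have 417, 238 and 146. The XEN share drops from 19.2% at rank 1 to 1.74% at rank 5, and the Suz12 share from 19.7 to 14.3%.

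The 11 clusters that kept 3 or more sites had from 5 to 12 peaks. No peak was at Suz12 in 10 of these 11, beside 563 of all 803 clusters, and the difference was not tested. The share of clusters with any kept site was 26.9% (22.8 to 31.6%) in chains of 5 and 47.1% (34.1 to 60.5%) in chains of 10 or more, which offer more sites. The cluster at chr6:82710766-82723573 had only 5 peaks in 12.8 kb, with folds of 7.97, 9.83, 7.72, 17.7 and 15.2 from left to right, and a XEN peak at all 5. The XEN peak with the second position from the left reached 20.2-fold and ranked 20 in the XEN list. At chr11:95864356-95882979, 4 of 5 ESC peaks were kept by 8 XEN peaks, 4 of them under a single ESC peak of 5270 bp. At chr17:29573950-29607483, 5 of 12 peaks were kept, among them the 4 strongest by fold (30.9, 20.7, 18.9 and 11.04). The clusters at chr1:169199329-169222285 and chr1:174131084-174157892 each kept 3 sites, of 7 and of 10; they are the first by position of 8 clusters that kept 3. Of the other 6, that at chr3:89176235-89200870 had 2 of its 8 peaks at Suz12, and it is named here after its values were seen. None of the 5 clusters described first had a Suz12 peak.

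The clusters named for their number of peaks, length or summed fold that had no Suz12 peak, or Suz12 at 2 peaks, kept 0 to 2 sites. The cluster with most peaks, at chr5:123582065-123628196, had 20 peaks in 46.1 kb with folds from 3.30 to 56.6 and a median of 5.70. It kept 2 sites in XENs, both among its first 3 from the left, and its strongest site (56.6-fold, 3144 bp wide) was not among them. The strongest of its 3 XEN peaks nevertheless ranked 7 in the XEN list. The cluster at chr12:88216865-88255573, the first by position of 4 with 15 peaks, kept 2 of 15 sites, and that at chr11:98785063-98836564, 51.5 kb long, kept 2 of 12. The cluster at chr10:80862262-80896116 had 12 peaks and a summed fold of 193.6, the second highest of all clusters, and kept none. Neither did that at chr8:123044603-123096609, with 14 peaks in 52.0 kb. The clusters at chr15:88975349-89014637 (17 peaks) and chr8:73290671-73335815 (14 peaks) had 2 peaks each at Suz12 peaks, which covered 6.2002% and 3.85% of their length, and kept no site.

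Sites at Suz12 kept a XEN peak less often than the other clustered sites. Of the 852 clustered peaks at Suz12, 30 had a XEN Zfp281 peak, or 3.52% (2.48 to 4.98%), and of the 4192 without Suz12, 295 had one, or 7.04% (6.30 to 7.85%). The 2 sets had nearly the same median fold, 6.02 and 5.82. In clustered peaks of score deciles 1 to 5 the shares were 0.573% (0.157 to 2.07%) and 1.00% (0.642 to 1.56%). Those of deciles 6 to 9 had 2.97% (1.67 to 5.24%) and 6.03% (4.99 to 7.28%), and the intervals overlapped in both ranges. In the highest score decile the shares were 12.8% (8.14 to 19.5%) and 28.2% (24.8 to 31.8%). The same order was seen outside clusters in that decile, at 16.6% (13.8 to 19.7%) and 26.1% (24.8 to 27.5%), so it was not a feature of clusters alone, and the intervals for clustered and other peaks at Suz12 overlapped. Over all deciles outside clusters the shares were 5.29% (4.57 to 6.12%) at Suz12 and 4.93% (4.73 to 5.14%) without it. There the peaks at Suz12 had the higher median fold, 7.23 against 5.41. In deciles 1 to 5 outside clusters the shares were 0.979% (0.547 to 1.74%) at Suz12 and 1.24% (1.10 to 1.39%) without it. In deciles 6 to 9 they were 4.03% (3.14 to 5.15%) and 5.04% (4.73 to 5.38%). The intervals overlapped in both of these ranges. By cluster, 50 of the 240 with Suz12 kept a site, or 20.8% (16.2 to 26.4%), against 187 of the 563 without, or 33.2% (29.4 to 37.2%). A peak of the highest score decile was present in 57.5% of the former and 61.8% of the latter.

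Clusters sorted by both features fell into 4 classes. Neither Suz12 nor a kept site was found in 376 clusters, 46.8% of all, with a median highest fold of 14.2. Suz12 alone was found in 190 clusters (14.5-fold), a kept site alone in 187 (21.4-fold) and both in 50 (19.5-fold). The classes with a kept site thus had the stronger leading peaks, with or without Suz12. Their median lengths were 16944 bp with both, 15137 bp with a kept site alone, 14373 bp with Suz12 alone and 13761.5 bp with neither.

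The local control level was higher at clustered peaks than at the others, and higher in clusters with a kept site than in those without. The level that the peak statistics imply was raised above its lowest value in the list, 3.01 tags, at 71.0% of clustered peaks and 54.3% of the others, with medians of 3.61 and 3.31 tags. Clustered peaks had a median of 27 tags at the summit and the others 24. By class, the median of the highest level in a cluster was 5.98 tags in both classes with a kept site, 5.12 with Suz12 alone and 4.98 with neither. The part of the control level in the overlaps was not tested. Without chromosomes 1 and 8, where the level was raised at 93.3 and 94.3% of all peaks, the ratio of clustered to other peaks was 2.58 for Suz12 and 1.25 for XEN Zfp281.

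The XEN list was much shorter than the ESC list, so its number of clusters cannot be set beside that of the full ESC list. The same rule found 4 clusters with 23 of its 3449 peaks, or 0.667%. It found none in the ESC list when only as many peaks as the XEN list has were kept, those with the highest score, and there the largest chain had 3 peaks and 91.4% of the peaks were alone, against 82.0% in XENs. The cut took away the weaker ESC peaks, while the XEN list kept its own. Several XEN peaks can also lie at 1 ESC peak, as in the XEN cluster of 8 peaks, which overlapped 4 ESC peaks. The 2 numbers of clusters are therefore not alike, and no comparison is drawn from them. Within the ESC list the number of clusters depends on how far down the list reaches. In the 8184 ESC Suz12 peaks the same rule found 82 clusters with 6.23% of the peaks. The part of list length in the few XEN clusters was not tested. Of the 4 XEN clusters, those at chr6:82710709-82723000 (5 peaks) and chr11:95864903-95879825 (8 peaks) coincided with ESC clusters described above. Those at chr4:133567469-133576309 and chr5:143574472-143584961, with 5 peaks each, overlapped 3 and 2 ESC Zfp281 peaks and no ESC cluster.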

How the data were processed

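The deposited data are peak lists in a 10-column layout without header, 1 library each. Per the submitters' processing notes, FastQC 0.10.1, Bowtie2 2.3.4, SAMtools 0.1.19 and build mm9 were used. The peak caller, its control and its threshold are not given in the sources used here. The authors' fold ratio, score (10 times the -log10 q-value, decimals dropped), -log10 p-value and -log10 q-value were used as deposited, to describe or rank peaks within a list. The lowest deposited -log10 q-value was 1.31 for ESC Zfp281, 1.33 for ESC Suz12 and 1.53 for XEN Zfp281. Chaining and overlaps were computed in Python 3.11.15 with pandas 2.3.3 and scipy 1.17.1, and checked on made-up peaks against bedtools 2.31.1. Deciles were taken over the 52266 peaks kept, ties by position.

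Tags and control level were computed from fold, as (tags + 1) / (level + 1), and the -log10 p-value, as a Poisson tail. A whole number of tags gave the deposited p-value within 0.0002 for every peak, on the -log10 scale. A level over 1% above the lowest was called raised.

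Named clusters are the 5 with most peaks, the 5 longest, the 5 with most peaks at Suz12, the 5 with most at XEN Zfp281 and the 3 with the highest summed fold, with ties taken by position. Members, lists and tests were chosen with earlier results of these data known. Gene lists, start sites and a G-rich motif were planned but not run, because no genome or annotation of mm9 was used here.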

Additional observations from a re-analysis of the deposited data

How the results depend on the processing

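No paired analysis was possible because every group is a single library, with nothing to pair or leave out. Of 95 values under alternatives, 38 stayed within the counting interval of the reported value (within 1.5 times for the number of clusters), and the ratio for XEN Zfp281 turned, to 0.918, with other peaks weighted by width. Weighting by score gave 1.005 for it, and 2.27 for Suz12, and weighting by width gave 1.90 for Suz12. The summit rule and equal numbers of peaks were chosen after seeing the data. The planned shares at start sites and of the G-rich motif were not run. A stricter or looser rule changes the clusters by construction. With gaps below 2 kb there were 171 clusters (1.92% of peaks, median length 8998 bp), 24.8% of clustered peaks at Suz12 (ratio 3.33) and 7.16% at XEN Zfp281. With gaps below 10 kb there were 1770 (24.7%, 24612 bp), with 11.5% at Suz12 (ratio 1.76). With 4 or more peaks there were 1602 (15.8%, 11217.5 bp), 15.1% of peaks and 26.3% of clusters at Suz12 and 25.03% of clusters at XEN Zfp281. With 8 or more there were 146 (2.67%, 24178.5 bp), with 19.3%, 38.4% and 39.7%. Distance between summits put 6.86% of peaks in clusters (12628 bp). Merging peaks closer than 500 bp left 492 (6.11%, 16905 bp), with 15.2% of peaks at Suz12 (ratio 2.20). The higher-scoring 50% of the ESC list gave 116 (2.596%, 16875.5 bp), a Suz12 ratio of 1.80, and 11.3% of peaks and 43.1% of clusters at XEN Zfp281. As many ESC peaks as in the XEN list gave 0 clusters and 0% of peaks. For Suz12, overlap of 50% of the shorter peak gave 14.3% of peaks, 26.5% of clusters and a ratio of 2.89, centres within 1 kb 8.82% and 1.499, the higher-scoring 50% of the Suz12 list 14.4%, 24.03% and 3.05, the summit inside the peak 13.2% and 3.15, and lone peaks as reference a ratio of 3.41. For XEN Zfp281, the higher-scoring 50% of its list gave 4.00476% of peaks, 19.9% of clusters and a ratio of 1.48, and the summit inside the peak 5.47% of peaks. The ratio for Suz12 was above 1 in every alternative run. The part of sequencing depth in the number of clusters was not tested.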

Other observations

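Clusters were unevenly spread over the chromosomes. Chromosome 11 had 87 clusters and 13.9% (12.9 to 15.0%) of its ESC Zfp281 peaks were clustered, the highest share. Chromosomes 8, 15 and 4 followed with 12.6, 12.4 and 12.4%. The control level was raised at 94.3% of the peaks of chromosome 8, and at 51.3 and 51.7% of those of chromosomes 15 and 4. Chromosome 1, with 93.3% raised, had 8.96% of its peaks clustered. The part of the control level in these shares was not tested. Chromosome 16 had 7 clusters and a share of 2.75% (2.05 to 3.68%), and chromosome X 4 clusters and 3.28% (2.21 to 4.83%). The clustered peaks of the chromosomes also differed in Suz12: the highest share at Suz12 was 75% of 24 peaks on chromosome X, then 38.7% of 119 on chromosome 13, 32.6% of 43 on chromosome 16 and 30.1% of 366 on chromosome 2, and the lowest 6.76% of 281 on chromosome 17. These shares rest on 4, 20, 7, 60 and 44 clusters.

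Some clusters had another cluster nearby. Of 783 neighbouring pairs on 1 chromosome, 199 were less than 100 kb apart and 59 less than 20 kb, against a median distance of 463159 bp. Joined at 100 kb, 334 clusters fell into 135 groups, 37 of them with 3 or more clusters. The largest group, chosen after its value was seen, had 8 clusters and 63 clustered peaks at chr8:122734589-123162904. None of the 63 was at a Suz12 peak and 2 were at a XEN Zfp281 peak. The next, at chr11:97285361-97682908, had 6 clusters and 47 peaks, with 2 at Suz12 and 9 at XEN Zfp281.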
